A study of Mus musculus with 5 samples.

Results

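The Slc22 organic ion transporters described here are 9 genes, Slc22a2, Slc22a4, Slc22a5, Slc22a6, Slc22a7, Slc22a8, Slc22a12, Slc22a13 and Slc22a18, chosen by symbol from a table of 54532 gene IDs. All 9 were found, and all 9 were among the 16226 genes abundant enough to test. RNA was sequenced from kidneys of male wild-type C57BL/6J mice, 8 weeks old, in 2 DMXAA libraries and 3 vehicle libraries. The DMXAA mice were given 10 mg/kg by intraperitoneal injection on each of 3 days, the vehicle mice received injections of vehicle on the same schedule, and tissue was taken on day 3. DMXAA binds and switches on STING of the mouse, the adaptor through which DNA in the cytosol induces interferon. The labels number the libraries as replicates without saying that each came from a different mouse, so the p-values measure the spread between these samples, which may be partly technical.

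Slc22 proteins are membrane carriers that move small organic anions, cations and zwitterions. In the kidney they sit mainly in the proximal tubule, where basolateral members take drugs, toxins and metabolites up from the blood and apical members exchange urate, carnitine and other solutes with the tubular fluid. Organic anion uptake through Slc22a6 and Slc22a8 runs against outward movement of dicarboxylates, which links it to sodium-coupled dicarboxylate transport, and secretion is completed by apical efflux pumps.

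None of the 9 transporters passed the test for a difference between DMXAA and vehicle kidneys. With edgeR's quasi-likelihood test 0 of 9 passed an adjusted p of 0.05 (Benjamini-Hochberg over all tested genes), with adjusted p-values of 0.759 to 0.976, and 0 of 9 had an unadjusted p under 0.05. Over all tested genes the same test called 0%, and 6.55% had an unadjusted p under 0.05. DESeq2 also called 0 of the 9, against 0.398% of the genes to which it gave an adjusted p. Log2 fold changes of DMXAA over vehicle ran from -0.48 for Slc22a7 to 0.35 for Slc22a6, with a median of -0.039 beside -0.015 over all tested genes. Estimates were above 0 for 4 members and below 0 for 5, where 46.9% of all tested genes were above 0. In 1 member, Slc22a6, both DMXAA libraries lay above all vehicle libraries and in none did both lie below, where 25.9% of all tested genes did not overlap between groups, 13.7% with DMXAA above and 12.2% with DMXAA below.

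The promoters of 3 members are shown for comparison of their sequence. Slc22a6 and Slc22a8 are neighbours whose estimates had opposite signs, and Slc22a5 had the estimate next in size to that of Slc22a6. The windows are from RefSeq on GRCm38.p6, the assembly named mm10, and run from 250 bases before to 50 bases after the annotated start. Windows were found for 8 of the 9 members, the exception being Slc22a7. Capitals mark CpG pairs, the sites at which vertebrate DNA is mainly methylated. The windows are chr19:8617746-8618045 on the plus strand for Slc22a6, chr19:8592932-8593231 on the plus strand for Slc22a8, and chr11:53891654-53891953 on the minus strand for Slc22a5.
Slc22a6: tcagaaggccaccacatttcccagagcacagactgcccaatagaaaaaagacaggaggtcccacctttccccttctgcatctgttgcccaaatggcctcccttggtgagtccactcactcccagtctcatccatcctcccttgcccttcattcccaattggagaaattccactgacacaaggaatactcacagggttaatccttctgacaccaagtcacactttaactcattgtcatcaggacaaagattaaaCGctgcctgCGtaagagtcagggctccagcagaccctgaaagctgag
Slc22a8: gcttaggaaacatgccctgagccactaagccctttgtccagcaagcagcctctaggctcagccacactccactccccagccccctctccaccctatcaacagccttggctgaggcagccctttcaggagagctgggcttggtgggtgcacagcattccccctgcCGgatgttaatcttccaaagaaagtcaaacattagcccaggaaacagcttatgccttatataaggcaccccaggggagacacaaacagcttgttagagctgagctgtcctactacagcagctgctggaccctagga
Slc22a5: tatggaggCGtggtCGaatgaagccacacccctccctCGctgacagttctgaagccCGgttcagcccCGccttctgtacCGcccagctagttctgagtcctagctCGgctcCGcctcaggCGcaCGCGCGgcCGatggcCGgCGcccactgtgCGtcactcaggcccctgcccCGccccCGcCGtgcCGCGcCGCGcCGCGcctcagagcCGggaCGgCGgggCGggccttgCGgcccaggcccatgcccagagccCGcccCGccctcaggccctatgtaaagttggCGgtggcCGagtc
Of 32851 windows of the same length, the percentages that hold a motif are given after it. None of the 8 windows held the HNF4 motif CAAAGTCCA (0.475%) or a direct repeat of AGGTCA with any 1 base between (0.0396%). None held the interferon-stimulated response element, a repeat of GAAA with any 2 bases between (3.44%), or the gamma-activated sequence TTCNNNGAA (8.3%). TATAAA lay in the Slc22a13 window alone among the 8, and in 13.6% of all windows. That match was on the reverse strand, as TTTATA, at position 0 from the annotated start. The Slc22a8 window holds the letters tatataa, which a search for TATAAA does not match. All motifs were searched on both strands. The direct repeat and the HNF4 motif are related, and overlaps between them were not merged. The Slc22a5 window had 72.7% G and C with 34 CpG pairs, and that of Slc22a4 69% with 29. The Slc22a6 window had 50% with 2 CpG pairs and that of Slc22a8 55% with 1, beside medians of 52.7% and 7 over all windows. These matches describe the letters in the windows only. The RefSeq starts of Slc22a8, Slc22a2 and Slc22a18 lie inside their GENCODE genes rather than at the first base, that of Slc22a8 furthest. The starts of the other windows lie shortly before the gene.

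Levels between genes were compared per length, in TPM, the length-scaled share of a library computed from the counts and the merged exon length of each gene. Slc22a12 was highest at 1138 ± 115 TPM in DMXAA and 1195 ± 179 TPM in vehicle kidneys (SD, n = 2 and n = 3). Slc22a18 followed at 616 ± 5.44 TPM in DMXAA and 572 ± 63.5 TPM in vehicle, and Slc22a6 at 594 ± 18 TPM in DMXAA and 451 ± 94.1 TPM in vehicle. Slc22a4 was lowest at 54.8 ± 0.853 TPM in DMXAA and 49.1 ± 9.85 TPM in vehicle. The order of means over the 5 libraries was Slc22a12, Slc22a18, Slc22a6, Slc22a2, Slc22a5, Slc22a8, Slc22a7, Slc22a13 and Slc22a4. Slc22a12, Slc22a18, Slc22a6 and Slc22a4 held the same place in all 5 libraries, although the ranges of Slc22a18 and Slc22a6 overlapped. Slc22a2 and Slc22a5 could not be ordered, with Slc22a2 above in 2 of 5 libraries. Slc22a7 overlapped both Slc22a8 and Slc22a13 and held places 5 to 8. Slc22a12 made up 35.9 and 33.3% of the summed TPM of the 9 members in DMXAA libraries 1 and 2, and 36.2 to 39% in the vehicle libraries.

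**Figure D1:**
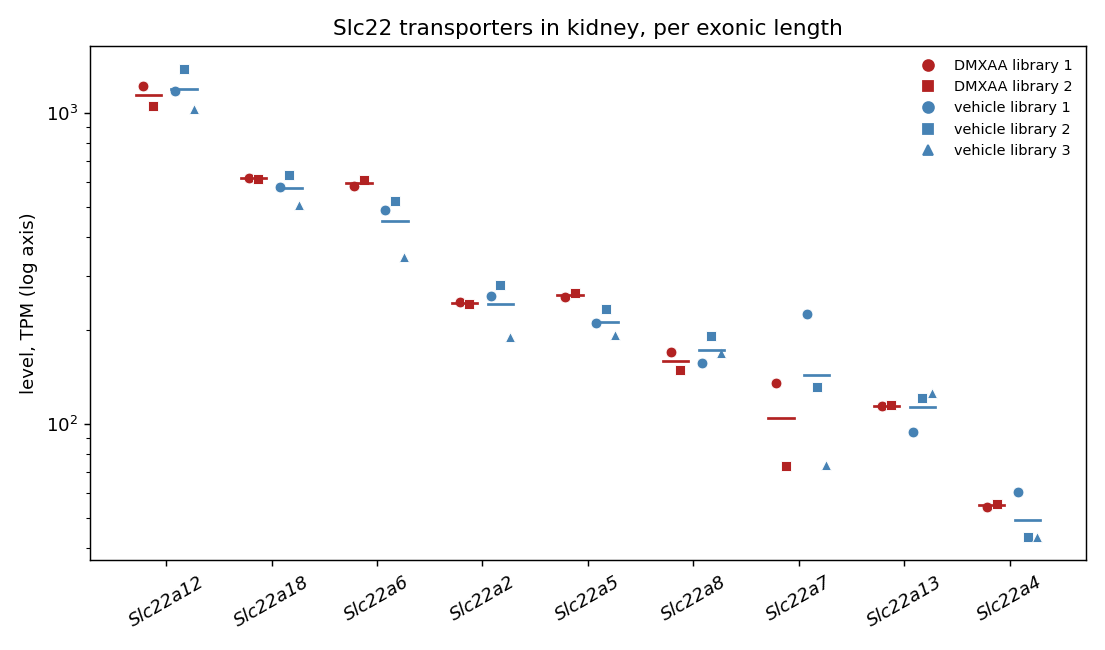
Level of each member in TPM on a log axis, with 1 marker per library, DMXAA at the left of each pair and vehicle at the right, and a bar at each group mean. Slc22a12 sits at 1027 TPM or more in every library, Slc22a4 sits lowest, and Slc22a7 spreads most within both groups.

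The other levels are in CPM, counts scaled to library size with TMM factors, and are comparable between libraries but not between genes. Slc22a6 encodes OAT1, the basolateral organic anion and dicarboxylate exchanger (ENSMUSG00000024650, mm10 chromosome 19, 8618039 to 8628299). It was at 861 and 883 CPM in DMXAA libraries 1 and 2, and at 693, 851 and 510 CPM in vehicle libraries 1 to 3. Both DMXAA libraries were above all vehicle libraries, but vehicle library 2 lay just under them and vehicle library 3 far below. The log2 fold change was 0.35 (SE 0.21, 95% interval -0.15 to 0.85; edgeR adjusted p = 0.769), so the difference did not exceed the spread between libraries.

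Slc22a8 encodes OAT3, a basolateral carrier that shares many anionic drug substrates with OAT1 (ENSMUSG00000063796, chromosome 19, 8591254 to 8611835). It ends 6203 bases before Slc22a6 begins, on the same strand. It was at 246 and 213 CPM in DMXAA and at 219, 307 and 246 CPM in vehicle libraries, and the groups overlapped. The log2 fold change was -0.16 (SE 0.16, 95% interval -0.55 to 0.22), and ran between -0.27 without DMXAA library 1 or vehicle library 1 and -0.015 without vehicle library 2. The count ratio of Slc22a6 to Slc22a8 within a library was 3.49 and 4.15 in DMXAA and 3.16, 2.77 and 2.08 in vehicle, higher in both DMXAA libraries. This ratio does not depend on library scaling. An exact two-sided permutation test over the 10 arrangements of the libraries gave p = 0.2, where 0.1 is the smallest this design allows.

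Slc22a7 encodes OAT2, an organic anion carrier (ENSMUSG00000067144, chromosome 17, 46432183 to 46438457). It was at 106 and 56.3 CPM in DMXAA and at 169, 114 and 57.6 CPM in vehicle libraries. The libraries of each group spread widely and overlapped, with a 2.94-fold range within vehicle. The log2 fold change of -0.48 (SE 0.45, 95% interval -1.57 to 0.60) became -1.01 when DMXAA library 1 was left out, -0.092 when DMXAA library 2 was, -0.082 when vehicle library 1 was, and -0.80 when vehicle library 3 was.

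Slc22a12 encodes URAT1, the apical urate exchanger (ENSMUSG00000061742, chromosome 19, 6535845 to 6543032). It was at 1026 and 873 CPM in DMXAA and at 951, 1281 and 865 CPM in vehicle libraries. The groups overlapped, vehicle library 2 was highest, and the log2 fold change was -0.12 (SE 0.20, 95% interval -0.59 to 0.35). Its exons share 682 of 2263 bases, 30.1%, with Nrxn2 on the opposite strand, and the counting is not stated to use strand, so reads there cannot be told apart. Nrxn2 itself was at 5.19 ± 1.51 CPM in DMXAA and 6.61 ± 1.33 CPM in vehicle.

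Slc22a13 encodes OAT10, known in humans as a carrier of nicotinate and urate (ENSMUSG00000074028, chromosome 9, 119192974 to 119209098). It was at 84.5 and 84.3 CPM in DMXAA and at 67.4, 99 and 93.6 CPM in vehicle libraries. Both DMXAA libraries lay inside the vehicle range, and the log2 fold change was -0.039 (SE 0.17, 95% interval -0.43 to 0.36). Of its 50-base stretches 36% also occur in the pseudogene Slc22a13b-ps, which had 0.133 ± 0.0473 CPM in DMXAA and 0.5 ± 0.106 CPM in vehicle, so its level is uncertain by reads that could be assigned to either.

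Slc22a2 encodes OCT2, the basolateral organic cation transporter that takes up creatinine and metformin (ENSMUSG00000040966, chromosome 17, 12584132 to 12628488). It was at 228 and 220 CPM in DMXAA and at 229, 286 and 176 CPM in vehicle libraries. The DMXAA libraries lay within the vehicle range, and the log2 fold change was -0.041 (SE 0.19, 95% interval -0.50 to 0.42).

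Slc22a5 encodes OCTN2, the sodium-coupled carnitine transporter that recovers carnitine from the tubular fluid (ENSMUSG00000018900, chromosome 11, 53864542 to 53891660). It was at 293 and 295 CPM in DMXAA and at 233, 294 and 220 CPM in vehicle libraries. Vehicle library 2 fell between the DMXAA libraries, and the other vehicle libraries were lower. The log2 fold change was 0.24 (SE 0.14, 95% interval -0.10 to 0.58; edgeR adjusted p = 0.759). In TPM, which does not use the TMM factors, the DMXAA libraries were at 257 and 263 and the vehicle libraries at 212, 234 and 193, without overlap. The separation of Slc22a5 thus depends on the scaling, and the share of all tested genes without overlap in TPM was not computed. Of its 50-base stretches 26.3% occur in other genes, mainly its neighbour Slc22a21, which was at 2.81 ± 0.254 CPM in DMXAA and 3.79 ± 1.24 CPM in vehicle.

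Slc22a4 encodes OCTN1, the ergothioneine transporter (ENSMUSG00000020334, chromosome 11, 53983123 to 54028090), and lies 91462 bases from Slc22a5 on the same strand. It was at 51.4 and 51.7 CPM in DMXAA and at 55.1, 45.4 and 41.2 CPM in vehicle libraries. The groups overlapped through vehicle library 1, and the log2 fold change was 0.13 (SE 0.13, 95% interval -0.20 to 0.45). Slc22a18, an imprinted gene whose substrate is uncertain (ENSMUSG00000000154, chromosome 7, 143473736 to 143499334), was at 391 and 380 CPM in DMXAA and at 351, 441 and 320 CPM in vehicle libraries. These groups also overlapped, with a log2 fold change of 0.058 (SE 0.15, 95% interval -0.30 to 0.42).

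The vehicle libraries differed more from each other than the DMXAA libraries did in 9 of 9 members by the SD of CPM, taken over 2 DMXAA and 3 vehicle libraries. The same held for 74.1% of all tested genes, and the chi-square of the counts per degree of freedom was 7.94 for the DMXAA pair and 22.2 to 42.4 for the vehicle pairs. The vehicle libraries ran 2, 1, 3 from high to low for Slc22a2, Slc22a5, Slc22a6, Slc22a12 and Slc22a18. They ran 1, 2, 3 for Slc22a4 and Slc22a7, and 2, 3, 1 for Slc22a8 and Slc22a13. The share of all tested genes with each order is not given here. The deviation of each member from its own 5-library mean, in log2 CPM, had a median of 0.064 and -0.013 in DMXAA libraries 1 and 2. Vehicle library 2 was the highest of the 5 libraries for 5 members, with a median deviation of 0.23. Vehicle library 3 was the lowest for 6 members, with a median deviation of -0.24. The summed level of the 9 members was 3288 and 3058 CPM in DMXAA and 2967, 3719 and 2530 CPM in vehicle libraries, so both DMXAA sums lay inside the vehicle range. The S1 and S2 markers of the proximal tubule summed to 10875 and 12277 CPM in DMXAA and to 8984, 10321 and 8613 CPM in vehicle libraries 1 to 3. The S3 markers summed to 21096 and 18618 CPM in DMXAA and to 21803, 23056 and 14451 CPM in vehicle libraries 1 to 3. Both marker sums were thus highest within vehicle in library 2 and lowest in library 3, as was the sum of the Slc22 members. The largest part of the S3 sum was Kap, at 14952, 15354 and 9322 CPM in vehicle libraries 1 to 3. Single markers differed. Of the S1 and S2 markers, Slc34a1, Slc5a2, Slc6a19 and Miox were highest in vehicle library 2 and lowest in 3. Lrp2, Cubn, Slc4a4, Slc7a7 and Slc7a8 were lowest in vehicle library 1, and Gatm in 2. Of the S3 markers, Slc7a13, Cyp2e1, Cyp4b1 and Kap followed the order of the sum and the others did not. The part of these markers in the Slc22 values was not tested. In bulk kidney, fewer proximal tubule cells and less RNA per cell cannot be told apart.

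**Figure D2:**
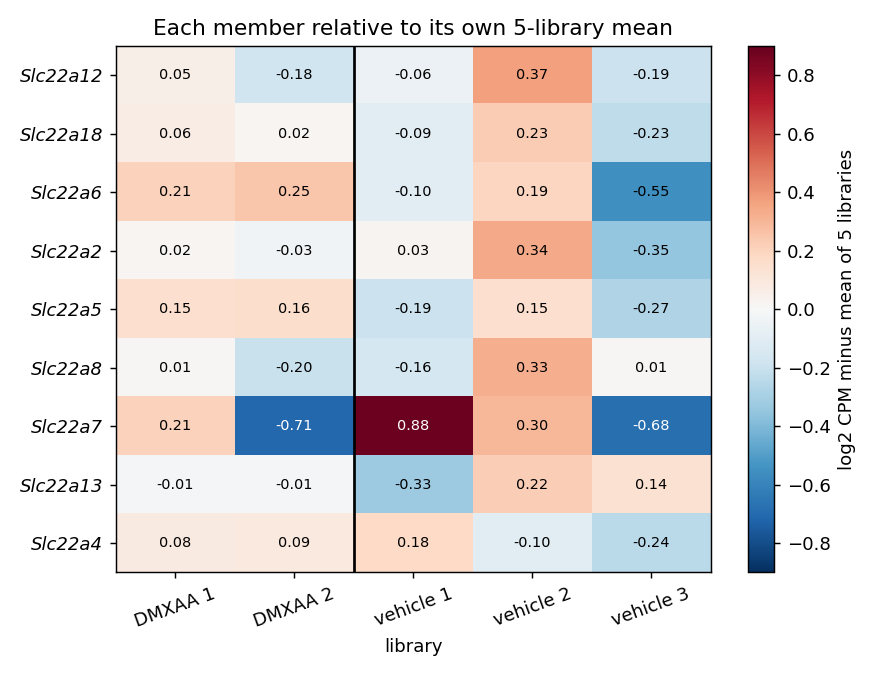
Log2 CPM of each member minus its mean over 5 libraries, 1 column per library with DMXAA left of the line and vehicle right of it, coloured from low (blue) to high (red). Vehicle library 2 is mostly red and vehicle library 3 mostly blue, while Slc22a7 has the largest deviations, 0.88 in vehicle library 1 and -0.71 in DMXAA library 2.

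The 5 libraries had total counts of 17667490 to 20264228. The 6 liver markers, of which Cyp3a11 was at 0 in every library, summed to 99.4 and 89.4 CPM in DMXAA and 99.3 to 134 CPM in vehicle. Tissue composition varied within vehicle. All 8 adipose markers summed to 2.11 and 3.73 CPM in DMXAA and to 491 CPM in vehicle library 1, against 3.12 and 12.2 CPM in vehicle libraries 2 and 3. The 8 urothelium markers summed to 15.6 and 11.4 CPM in DMXAA, and to 208, 2.78 and 30 CPM in vehicle libraries 1 to 3. The 8 collecting duct markers summed to 659 and 702 CPM in DMXAA and 709 to 1287 CPM in vehicle. The 6 thick ascending limb and distal tubule markers summed to 7052 and 7515 CPM in DMXAA and 5105 to 8405 CPM in vehicle, the 7 blood cell markers to 55 and 34.3 CPM in DMXAA and 117 to 282 CPM in vehicle, and the 8 immune cell markers to 86.1 and 57.1 CPM in DMXAA and 55.8 to 115 CPM in vehicle. The 11 interferon-stimulated genes summed to 687 and 859 CPM in DMXAA and to 240, 567 and 255 CPM in vehicle libraries 1 to 3, so vehicle library 2, in which 5 Slc22 members were highest, was also high in these. The part of these differences in the Slc22 values was not tested. Tmem173, which encodes STING, was at 4.35 ± 0.669 CPM in DMXAA and 5.6 ± 0.989 CPM in vehicle, and Irf7, an interferon-induced regulator, at 410 ± 95.6 CPM in DMXAA and 103 ± 77.9 CPM in vehicle (edgeR adjusted p = 0.724).

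Leaving out vehicle library 2 moved most members upward. Without it 7 of 9 estimates were above 0 and the median was 0.10, beside -0.0037 over all genes tested in that fit. The log2 fold change of Slc22a6 was then 0.54 (SE 0.16) and that of Slc22a5 0.38 (SE 0.083). In edgeR neither passed, with adjusted p of 0.371 and 0.342. In DESeq2 both passed without that library, with adjusted p of 0.0443 and 0.0426, where 1.15% of genes with an adjusted p did. The remaining comparison has 2 libraries in each group, and leaving out vehicle library 2 was not motivated by any label. Without vehicle library 3 the estimate of Slc22a6 was 0.17 and that of Slc22a5 0.16.

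**Figure D3:**
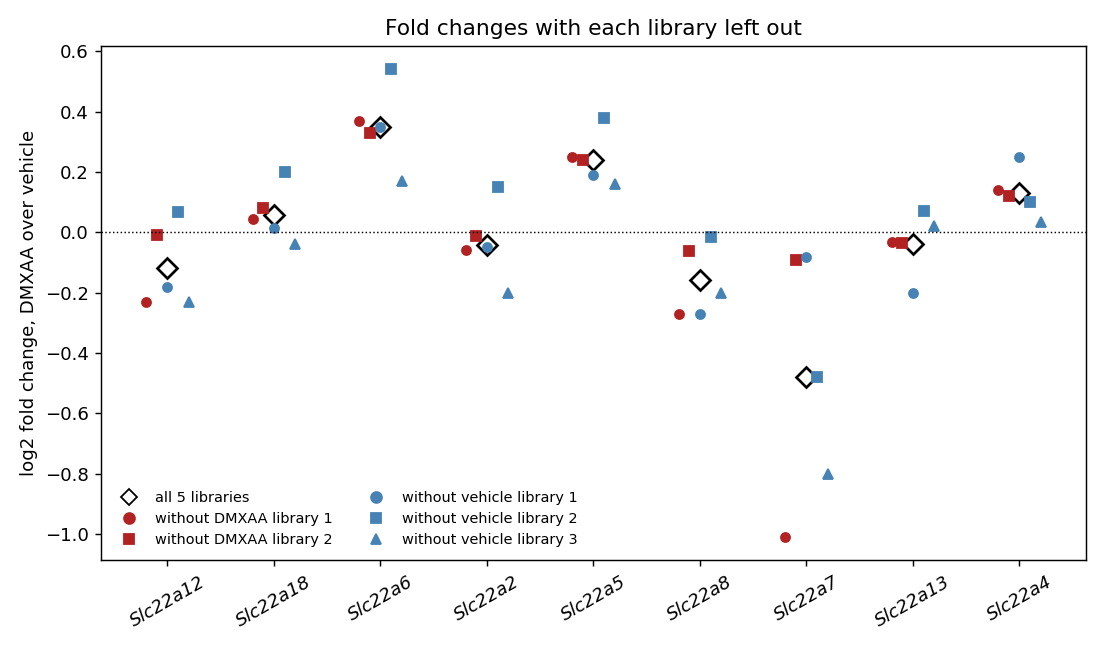
Log2 fold change of DMXAA over vehicle for each member with all 5 libraries (open diamonds) and with each library left out (red for DMXAA, blue for vehicle). Slc22a6, Slc22a5 and Slc22a4 stay above 0 and Slc22a8 and Slc22a7 below 0 in each of these 5 edgeR fits, while Slc22a2, Slc22a12, Slc22a13 and Slc22a18 cross 0.

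Ratios between members within a library showed no pattern beyond that of genes at large. Of the 36 ratios among the 9 members, 10 did not overlap between DMXAA and vehicle, 27.8%, beside 25% of the ratios of all pairs of tested genes. Slc22a5 stood in 5 of these 10 and Slc22a6 in 4, and both had DMXAA above in their ratios to Slc22a8, Slc22a12 and Slc22a18. Ratios that share a gene are not independent, and how often ratios gather on 1 gene among all genes was not computed. The count ratio of Slc22a6 to Slc22a12 was 0.839 and 1.01 in DMXAA and 0.729, 0.664 and 0.59 in vehicle libraries. Its exact two-sided permutation p was 0.1, the smallest possible, and 0.514 after Benjamini-Hochberg adjustment over the 36 ratios.

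The rest of the family was mixed in the same way, and held the clearest differences. Of 15 other Slc22 genes 13 were tested, 6 with estimates above 0 and 7 below, with a median of -0.071, and edgeR called none. Slc22a23, an orphan member, was at 123 and 139 CPM in DMXAA and at 98.7, 87.5 and 82.9 CPM in vehicle libraries, without overlap. Its log2 fold change was 0.55 (SE 0.11, edgeR adjusted p = 0.629), and DESeq2 called it at an adjusted p of 0.016. That call was lost in DESeq2 without DMXAA library 1 (adjusted p = 0.463), without DMXAA library 2 (adjusted p = 1) and without vehicle library 3 (adjusted p = 0.395). Slc22a22, a prostaglandin carrier of the mouse proximal tubule, was at 121 and 126 CPM in DMXAA and at 101, 82 and 62.5 CPM in vehicle libraries, also without overlap. Its log2 fold change was 0.59 (SE 0.19, edgeR unadjusted p = 0.0166, adjusted p = 0.724). These were the only genes among these 22 tested genes of the family with an unadjusted p under 0.05.

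The rodent genes Slc22a28 and Slc22a30, on the stretch of chromosome 19 that also holds Slc22a8 and Slc22a6, were at 136 ± 22.6 and 142 ± 3.85 CPM in DMXAA, and at 94.1 ± 29.4 and 116 ± 30.2 CPM in vehicle. They share 53.9 and 34.3% of their 50-base stretches with other genes, mainly each other, so both levels are uncertain. Slc22a19, which encodes OAT5, was at 84.5 ± 20.7 CPM in DMXAA and 93.9 ± 11.1 CPM in vehicle. Slc22a17, a receptor for lipocalin-2, was at 22.4 ± 0.307 CPM in DMXAA and 27.5 ± 3.28 CPM in vehicle, and Slc22a15 at 3.78 ± 0.218 CPM in DMXAA and 5.91 ± 2.21 CPM in vehicle. In these last 2 genes, and in Slc22a27, DMXAA lay below all vehicle libraries. Slc22a27 had only 8 and 10 counts in DMXAA and 10, 11 and 14 in vehicle libraries, so its order rests on few reads. Of the 13 other genes tested, 2 had DMXAA above all vehicle libraries and 3 had it below. Over all tested genes these shares were 13.7% and 12.2%. Slc22a14, Slc22a21, Slc22a26 and Slc22a29 overlapped between groups. Slc22a3, encoding OCT3, was at 0.371 ± 0.103 CPM in DMXAA and at 2.64 CPM in vehicle library 1, with 0.227 and 0.554 CPM in vehicle libraries 2 and 3. Slc22a16 had a single count in all and Slc22a20 had none, which allows up to 0.148 to 0.17 CPM per library, taking 3 counts as the limit for counting error only.

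**Figure D4:**
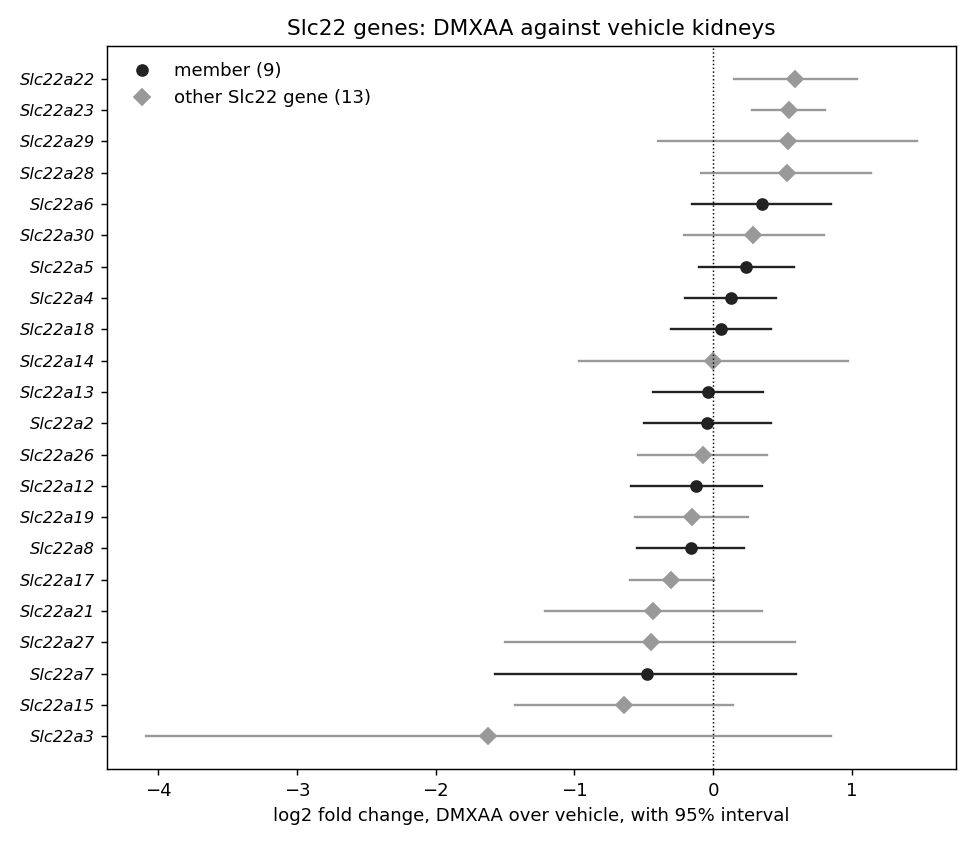
Log2 fold change of DMXAA over vehicle with its 95% interval for 22 tested Slc22 genes, ordered by size. The intervals of all 9 members (black) include 0, and those of Slc22a22 and Slc22a23 (grey) do not.

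Genes that work beside these carriers were counted list by list, and differences between the lists were not tested. Of 8 exchange-substrate transporters and scaffolds, 7 had estimates above 0, 2 had an unadjusted p under 0.05 and none was called by edgeR, with a median of 0.19. Slc5a12, the apical lactate transporter, was at 321 and 380 CPM in DMXAA and at 211, 203 and 231 CPM in vehicle libraries. Pdzk1, a scaffold that binds URAT1 and OCTN carriers, was at 622 and 738 CPM in DMXAA and at 475, 517 and 410 CPM in vehicle libraries. Slc13a3, the basolateral dicarboxylate transporter that feeds OAT1 and OAT3, was at 579 and 569 CPM in DMXAA and at 460, 672 and 404 CPM in vehicle libraries, and overlapped. Slc5a12 and Pdzk1 did not overlap, and DESeq2 called Slc5a12 (adjusted p = 0.00015). In DESeq2 Slc5a12 no longer passed when DMXAA library 2 was left out (adjusted p = 1), and edgeR called Slc5a12 when no expression filter was applied (adjusted p = 0.041).

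Of 6 tested apical efflux partners, 4 had estimates above 0 (median 0.13). Abcc2, which encodes the efflux pump MRP2, was at 479 and 475 CPM in DMXAA and at 354, 416 and 375 CPM in vehicle libraries, the only gene of this list with an unadjusted p under 0.05. Slc47a1, which encodes the proton and cation exchanger MATE1, was at 578 ± 31 CPM in DMXAA and 478 ± 66.7 CPM in vehicle. Of 15 tested urate and organic anion partners 9 were above 0 (median 0.037), with 1 gene at an unadjusted p under 0.05 in each direction. Slc17a1, an apical urate and phosphate carrier, was at 615 ± 20.6 CPM in DMXAA and 480 ± 76 CPM in vehicle. Abcc3, an efflux pump gene, was at 1.94 and 2.44 CPM in DMXAA and at 9.5, 2.84 and 4.21 CPM in vehicle libraries, highest in vehicle library 1.

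Genes listed for the carnitine shuttle and carnitine synthesis had 4 of 11 estimates above 0 and a median of -0.12. Of these Slc25a29, a mitochondrial carrier, was the only gene with an unadjusted p under 0.05, at 4.71 and 3.88 CPM in DMXAA and 6.8, 6.7 and 6.98 CPM in vehicle libraries. Among 9 tested transcription regulators linked to Slc22 genes, 7 were above 0 (median 0.23), and 1 had an unadjusted p under 0.05 in each direction. Ppara, the fatty acid-sensing receptor, was at 81.2 and 89.2 CPM in DMXAA and at 48, 45 and 59.5 CPM in vehicle libraries. Its log2 fold change was 0.74 (SE 0.13, edgeR adjusted p = 0.583), and DESeq2 called it (adjusted p = 0.00426). In DESeq2 Ppara no longer passed when DMXAA library 1 (adjusted p = 0.33) or DMXAA library 2 (adjusted p = 1) was left out, and edgeR called Ppara when no expression filter was applied (adjusted p = 0.0402). Hnf4a, at 994 ± 85.1 CPM in DMXAA and 841 ± 161 CPM in vehicle, overlapped between groups.

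Markers of the proximal tubule segments, where these carriers are found, were tallied in the same way. All 10 S1 and S2 markers had estimates above 0, 6 of them at an unadjusted p under 0.05, and in 8 both DMXAA libraries lay above all vehicle libraries, with a median of 0.33. Of the 9 S3 markers 6 were above 0, none had an unadjusted p under 0.05, and the median was 0.16. Over all 16226 tested genes 46.9% were above 0, and 632 had an unadjusted p under 0.05 with DMXAA higher. Both DMXAA libraries lay above all vehicle libraries in 13.7%. The Slc22 members had 4 of 9 above 0 and 1 of 9 above all vehicle libraries. The difference between these lists was not tested, and edgeR called no gene in any of them.

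**Figure D5:**
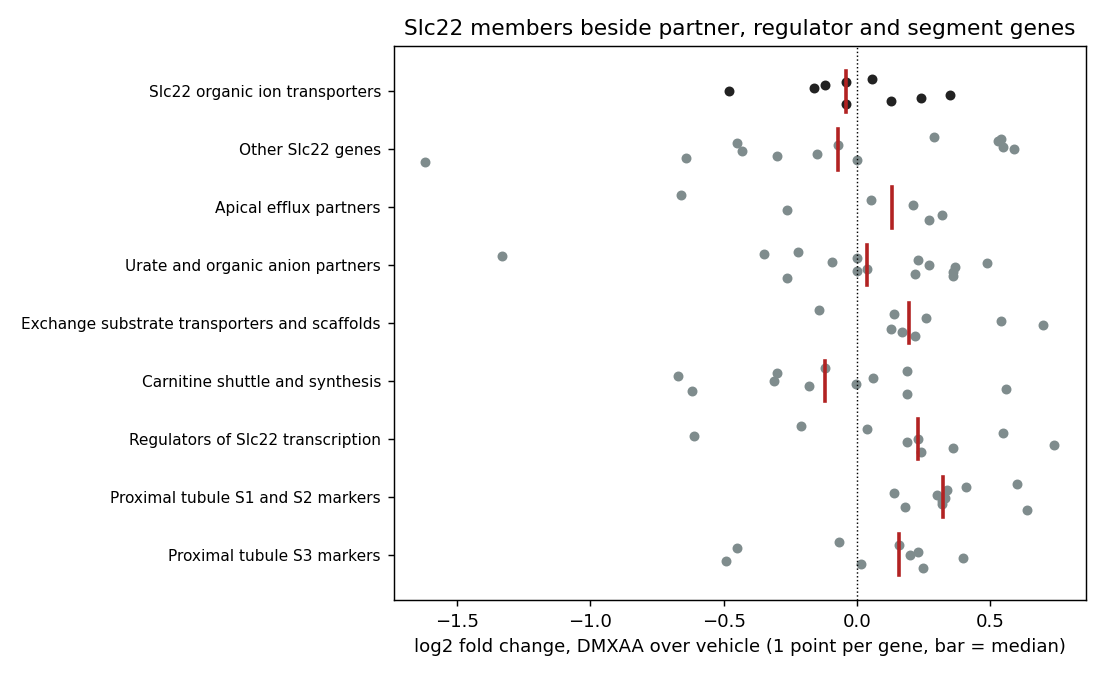
Log2 fold change of DMXAA over vehicle, 1 point per tested gene, for the Slc22 members (top row, black) and the lists of other family genes, partners, regulators and segment markers, with a red bar at each median. The members centre at -0.039 and the S1 and S2 markers at 0.33.

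For each member the nearest pattern outside the family was sought among 10413 genes with an average log2 CPM above 3, as the root mean square distance between centred log2 CPM over the 5 libraries. Slc22a5 was nearest to Fads3, a desaturase family gene, at a distance of 0.0149, with 230 and 227 CPM in DMXAA and 185, 230 and 174 CPM in vehicle libraries. Slc22a6 was nearest to Ftcd, an enzyme of histidine breakdown, at 0.0381, with 15.6 and 15.1 CPM in DMXAA and 12.6, 15.4 and 8.86 CPM in vehicle libraries. The distances for Slc22a2 (to Eci3), Slc22a4 (Zfp280b), Slc22a8 (Rnf145), Slc22a12 (Tfpt), Slc22a13 (Man2b1) and Slc22a18 (Tmem178) were 0.0189 to 0.0311. For Slc22a7 the nearest gene, Snx31, was 0.282 away, so no searched gene followed its pattern closely. These distances over 5 libraries are descriptions.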

How the data were processed

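The authors deposited raw read counts per Ensembl gene ID, with 1 column per library. The tools listed, per the submitters' processing notes, are featureCounts, Subread, HISAT2 and DESeq2 1.16.1, with the build mm10. Annotation, strand setting and handling of multi-mapping reads: not given in the sources used here. Columns were matched to libraries by name. GENCODE M21 gave symbols for 99.9% of IDs. From the counts, edgeR 4.0.16 in R 4.3.3 (TMM scaling, default expression filter, quasi-likelihood F test with group as the only term, two-sided) was fitted to all 16226 genes, with Benjamini-Hochberg adjustment over them; a gene was called below 0.05. SEs are the log2 fold change divided by the square root of F, and 95% intervals use the t distribution. CPM is TMM-scaled, and TPM uses merged exon length. DESeq2 1.42.0 was an alternative. The procedure was tested on simulated data. The lowest count of any member in a library was 744, a counting error of 3.67%; the biological coefficient of variation over all genes was 19%.

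The members and gene lists were chosen with earlier results of these data known. The rule named all members, the other tested Slc22 genes, up to 4 genes with the smallest unadjusted p of each list, the nearest pattern per member, Tmem173 and Irf7; some genes under it are not reported here. The others, such as Hnf4a and Slc13a3, and the ratios were chosen after their values were seen. The chi-square per degree of freedom between libraries was 7.94 to 42.4, so no pair matched within sampling noise.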

Additional observations from a re-analysis of the deposited data

How the results depend on the processing

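No member was called by edgeR under any alternative. DESeq2 called 54 genes over the whole table, and edgeR called 34 without an expression filter, 4 with the replicate number as a block and 1 with that block and the length and GC offset; the cause was not tested. Leaving out each library in turn gave 0 to 2 calls in edgeR and 4 to 176 in DESeq2 (17 and 4 without DMXAA library 1 and 2, and 121, 176 and 32 without vehicle library 1, 2 and 3; added after the data were seen); for the members this was 0 in edgeR and 0 to 2 in DESeq2, and their median was -0.05 to 0.10. A group left with 1 library was assumed to vary like the other. Correlations of same-numbered deviations were 0.0748 and 0.0809. With only 2 DMXAA libraries they cannot decide whether the replicate numbers pair the libraries. Under the block Slc22a13 turned to 0.045 (0.091 with the offset) and Slc22a18 to -0.028. Of 180 recomputed member values, 13 changed sign and 2 were called. With a library left out in either tool, signs turned for Slc22a13 (edgeR -0.20 to 0.069; DESeq2 up to 0.07, and 0.025 without vehicle library 3), Slc22a18 (edgeR -0.038 to 0.20, DESeq2 -0.032 to 0.21), Slc22a2 (-0.20 to 0.15), Slc22a12 (edgeR -0.23 to 0.067, DESeq2 up to 0.069) and Slc22a19 (edgeR -0.42 to 0.08, DESeq2 up to 0.082). The Slc22a6 to Slc22a8 ratio, as log2 DMXAA minus vehicle, was 0.53 with all libraries and 0.36 to 0.67 with 1 left out (added after the data were seen).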
